A study of Mus musculus with 6 samples.

Results

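The PI3K, TSC and mTOR pathway was examined through 9 genes named for this purpose (Pik3cd, Pik3r1, Inpp5d, Akt1, Tsc1, Tsc2, Rheb, Mtor and Rptor), found by their symbols among the 11922 genes of the deposited counts. All 9 had a row, and all 9 were among the 11759 genes that passed the low-count filter. The RNA came from splenic CD8+ T cells of 3 C57BL6/J donor mice, isolated on anti-CD8α beads, activated with anti-CD3/anti-CD28 Dynabeads that were removed after 3 days, and kept until day 7 in interleukin-2 at 100 units per ml. The vehicle cultures received water, and the AOA cultures received aminooxyacetic acid at 0.25 mM, an inhibitor of enzymes that use pyridoxal 5'-phosphate, the active form of vitamin B6. Each mouse gave 1 culture to each group, so there were 3 vehicle and 3 AOA libraries, and no genetic change separated them. The ages of these donors are not given in the labels. The cells were sequenced in bulk.

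Class I PI3K is a pair of a catalytic and a regulatory subunit that makes the membrane lipid PIP3 after T cell receptor, costimulatory and cytokine signals, and lipid phosphatases remove it. PIP3 brings the kinase AKT to the membrane, where it is activated and phosphorylates, among others, TSC2 and the FOXO transcription factors. The TSC complex switches off the small GTPase RHEB, and RHEB in its active form stimulates mTOR complex 1 (mTORC1), which drives protein synthesis and growth and also needs amino acids sensed at the lysosome. In CD8+ T cells this pathway is known for its part in the choice between effector and memory fates. Much of it is regulated by phosphorylation, which RNA counts do not measure.

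Total counts lay between 12881962 and 21997078 per library. Levels are given as CPM, the counts of a gene relative to its TMM-scaled library total. A positive log2 fold change means a higher level with AOA. Errors of fold changes are standard errors (SE) from the quasi-likelihood test of edgeR, and a gene is called changed at an adjusted p under 0.05 over all 11759 genes. Of the 8 CD8 T cell markers listed, 7 had a row, and their summed level was 4681 to 5295 CPM with vehicle and 6314 to 7114 CPM with AOA. Of these 7, Cd8a, Cd8b1 and Thy1 were called higher and Cd2 lower (-0.61), and Cd3d, Cd3e and Cd3g were not called (-0.13, -0.27 and -0.31). Among markers of other cells, the 4 myeloid genes with a row summed to 46.0 to 108 CPM with vehicle and 2.11 to 5.87 CPM with AOA, and with vehicle the sum was almost all Itgam (40.5 to 52.9 CPM) and Fcer1g (2.22, 53.4 and 5.86 CPM), while Lyz2 and Cd14 were at 1.16 CPM or less in every library. The 3 CD4 T cell genes summed to 154 to 205 CPM and 32.4 to 53.1 CPM. Of these, Cd4 (-3.08) and Zbtb7b (-2.17) were called lower, and Foxp3 was not called (0.36, adjusted p = 0.127 by edgeR). The 4 NK genes summed to 156 to 328 CPM and 135 to 221 CPM, mostly through Eomes, which was not called (0.04), while Klrb1c (-3.02, adjusted p = 0.0031 by edgeR) and Klre1 (-1.43, adjusted p = 0.00623 by edgeR) were called lower. The 4 B cell genes summed to 12.6 to 16.6 CPM and 22.6 to 30.7 CPM, mostly through Cd79b, the one of them called (higher, adjusted p = 0.00172 by edgeR). Lyz2 and Ncr1 were at 0 in vehicle replicates 1 and 3, Cd14 was at 0 in AOA replicates 1 and 3, and no erythroid marker had a row. The part of these cells in the results below was not tested.

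Of the 9 genes, 7 were called changed, with 2 higher (Rheb and Akt1) and 5 lower (Pik3r1, Rptor, Inpp5d, Tsc1 and Tsc2). Pik3cd and Mtor were not called. Over all genes tested 53.0% were called, 26.2% higher and 26.8% lower, so a call is common in this comparison and the count is a description of these 9 genes. In 8 of the 9 genes the groups did not overlap, as in 62.1% of all genes. AOA was the higher group in 2 of these 8 (31.0% of all genes) and the lower group in 6 (31.1%). The changes were of moderate size. No gene reached an absolute log2 fold change of 1, which 27.2% of all tested genes did, and the median absolute log2 fold change was 0.63 for the 9 genes and 0.56 for all tested genes. In bulk RNA, fewer cells of a type and less RNA per cell cannot be told apart. The plot of CPM by culture shows the 9 genes in each mouse.

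**Figure D1:**
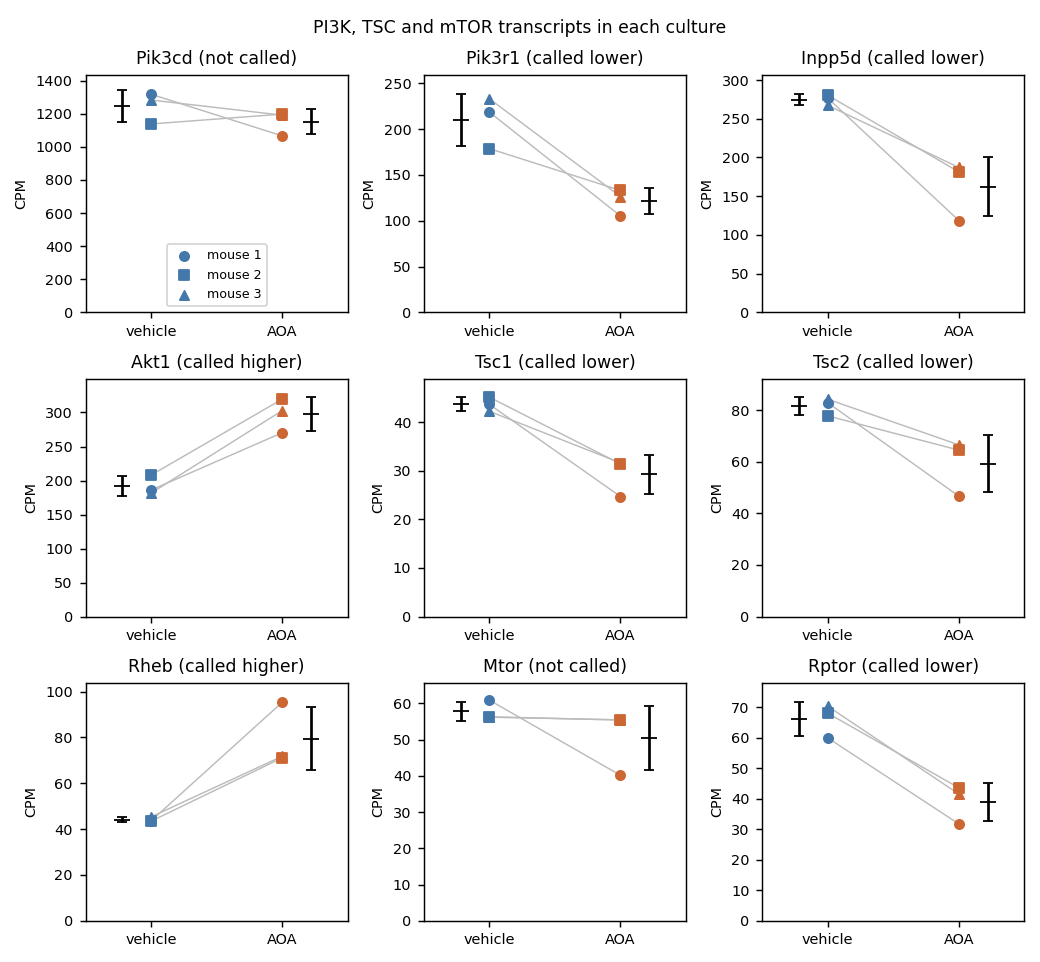
CPM of the 9 genes (vertical axes from 0) in vehicle (blue) and AOA (orange) cultures, with a grey line joining the cultures of each mouse and black bars giving the mean ± SD of 3 libraries. Rheb and Akt1 are higher in all 3 AOA cultures, Pik3cd overlaps between the groups, and AOA replicate 1 is the lowest AOA library for every gene but Rheb.

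Gene length has to be read beside these values. The 9 genes are long. Their median length was 6427 bases, while that of the tested genes was 2900 bases, and only Rheb (1521 bases) and Akt1 (2853 bases) are shorter than that median. Across all tested genes the median log2 fold change went from 0.12 in the shortest of 4 equal length classes to -0.16 in the longest. AOA replicate 1 carried most of this trend. Its mean log2 deviation from the average of the 6 libraries was 0.23 in the shortest class and -0.22 in the longest, while in the longest class AOA replicates 2 and 3 were at 0.01 and -0.05. With the trend of each library with gene length removed, 7 of the 9 genes were still called in the same direction, and the log2 fold changes were 0.71 for Rheb, 0.61 for Akt1, -0.63 for Pik3r1, -0.62 for Rptor, -0.67 for Inpp5d, -0.41 for Tsc1 and -0.33 for Tsc2. Without AOA replicate 1 the same 7 genes were called, from 0.70 for Rheb and for Akt1 to -0.69 for Pik3r1.

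**Figure D2:**
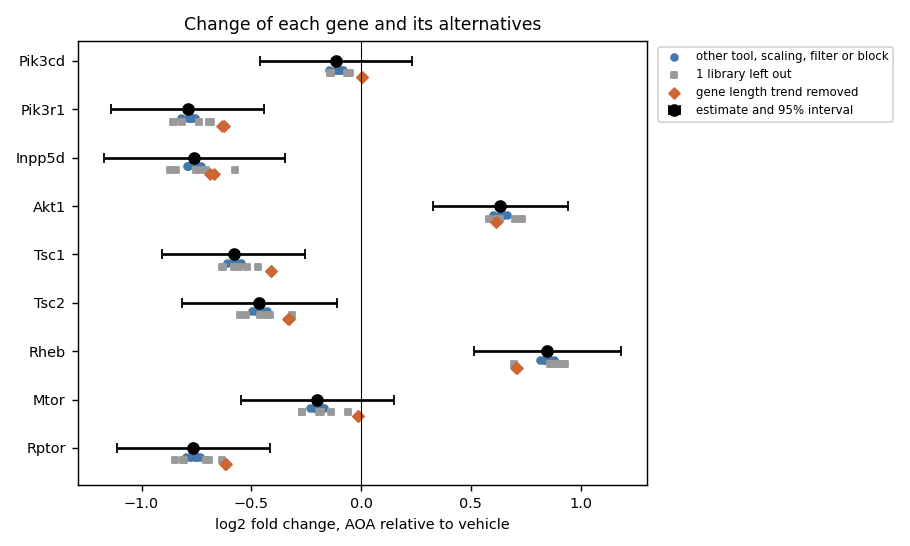
Log2 fold change of AOA relative to vehicle for the 9 genes (horizontal axis), with the 95% interval in black, other tools, scalings, filters and the mouse block in blue, single libraries left out in grey, and the removal of length trends in orange. The 7 called genes keep their side of 0 under each alternative, and Pik3cd moves to 0.0036 with length trends removed.

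The windows around the annotated transcription starts of the 7 called genes are printed, with both annotated starts of Akt1 and of Pik3r1, so that the raised and the lowered genes can be read side by side. The sequences are those of RefSeq on GRCm38.p6, 250 bases before to 50 bases after the start, 5′ to 3′ on the gene's strand. They lie at chr5:24842312-24842611 for Rheb (minus strand), chr12:112674227-112674526 and chr12:112674835-112675134 for the first and second Akt1 starts (minus), chr13:101692581-101692880 and chr13:101768168-101768467 for the first and second Pik3r1 starts (minus), chr1:87620062-87620361 for Inpp5d (plus), chr2:28640983-28641282 for Tsc1 (plus), chr17:24632578-24632877 for Tsc2 (minus) and chr11:119602655-119602954 for Rptor (plus). Capitals mark matches, on either strand, to 6 motifs, which were the E-box CACGTG, the cyclic AMP element TGACGTCA, the GC box GGGCGG, the ETS core CCGGAAG, the FOXO site GTAAACA and the E2F site TTTCGCGC.
Rheb: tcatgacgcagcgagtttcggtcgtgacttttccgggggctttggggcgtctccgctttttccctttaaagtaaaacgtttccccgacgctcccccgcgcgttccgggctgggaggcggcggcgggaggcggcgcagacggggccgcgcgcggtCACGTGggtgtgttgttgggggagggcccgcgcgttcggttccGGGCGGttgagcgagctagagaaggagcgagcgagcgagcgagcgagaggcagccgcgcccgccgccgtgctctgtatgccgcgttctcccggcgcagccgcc
Akt1 first start: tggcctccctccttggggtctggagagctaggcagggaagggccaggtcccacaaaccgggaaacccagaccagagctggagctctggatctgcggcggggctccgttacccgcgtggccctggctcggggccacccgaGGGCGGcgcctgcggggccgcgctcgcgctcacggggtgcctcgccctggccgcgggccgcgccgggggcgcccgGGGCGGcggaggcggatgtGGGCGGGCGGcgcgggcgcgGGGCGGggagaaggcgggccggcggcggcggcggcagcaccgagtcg
Akt1 second start: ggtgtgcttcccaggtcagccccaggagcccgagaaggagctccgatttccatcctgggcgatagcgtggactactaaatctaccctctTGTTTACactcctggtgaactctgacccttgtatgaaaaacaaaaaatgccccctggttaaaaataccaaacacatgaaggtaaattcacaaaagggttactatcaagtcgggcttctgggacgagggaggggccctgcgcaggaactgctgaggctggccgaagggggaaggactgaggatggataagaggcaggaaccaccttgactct
Pik3r1 first start: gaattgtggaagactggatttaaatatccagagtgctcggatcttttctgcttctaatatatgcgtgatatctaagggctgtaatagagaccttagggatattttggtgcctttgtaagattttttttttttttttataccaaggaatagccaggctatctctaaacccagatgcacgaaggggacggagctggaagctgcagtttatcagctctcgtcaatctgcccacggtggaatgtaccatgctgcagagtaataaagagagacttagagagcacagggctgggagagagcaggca
Pik3r1 second start: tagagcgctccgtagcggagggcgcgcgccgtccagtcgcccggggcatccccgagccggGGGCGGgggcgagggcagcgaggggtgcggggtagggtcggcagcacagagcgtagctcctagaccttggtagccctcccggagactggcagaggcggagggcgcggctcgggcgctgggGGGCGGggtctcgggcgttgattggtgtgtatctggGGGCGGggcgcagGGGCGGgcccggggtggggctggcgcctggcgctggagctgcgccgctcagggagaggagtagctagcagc
Inpp5d: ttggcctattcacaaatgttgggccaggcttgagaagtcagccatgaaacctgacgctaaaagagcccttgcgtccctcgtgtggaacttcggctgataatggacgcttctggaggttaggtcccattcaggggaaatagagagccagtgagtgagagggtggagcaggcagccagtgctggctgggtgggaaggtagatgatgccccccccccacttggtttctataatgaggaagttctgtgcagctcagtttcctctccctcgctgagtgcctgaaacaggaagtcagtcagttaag
Tsc1: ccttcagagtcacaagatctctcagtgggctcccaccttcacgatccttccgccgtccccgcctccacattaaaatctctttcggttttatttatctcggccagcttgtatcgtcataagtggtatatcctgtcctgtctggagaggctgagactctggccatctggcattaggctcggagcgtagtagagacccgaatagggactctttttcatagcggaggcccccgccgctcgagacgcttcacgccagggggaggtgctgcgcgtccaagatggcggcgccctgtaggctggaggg
Tsc2: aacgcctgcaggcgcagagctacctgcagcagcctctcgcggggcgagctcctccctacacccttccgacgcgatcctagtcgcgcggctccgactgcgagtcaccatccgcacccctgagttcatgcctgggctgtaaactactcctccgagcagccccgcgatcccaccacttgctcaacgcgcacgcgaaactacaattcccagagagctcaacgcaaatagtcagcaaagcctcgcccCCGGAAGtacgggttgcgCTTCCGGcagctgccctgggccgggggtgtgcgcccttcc
Rptor: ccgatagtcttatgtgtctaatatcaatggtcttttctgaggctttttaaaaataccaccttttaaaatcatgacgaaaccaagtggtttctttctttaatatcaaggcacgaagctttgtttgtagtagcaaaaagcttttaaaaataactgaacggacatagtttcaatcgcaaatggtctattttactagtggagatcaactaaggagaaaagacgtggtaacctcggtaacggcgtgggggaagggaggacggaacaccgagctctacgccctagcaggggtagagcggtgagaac

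The Rheb window held an E-box that began 96 bases before the start and a GC box 53 bases before it. The first Akt1 window held 5 GC boxes, and a pair of them overlapped by 2 bases. It was 79.7% G and C, while the second Akt1 window was 52.3% and held no GC box but a FOXO site 161 bases before the start. The second Pik3r1 window held 4 GC boxes at 75.7% G and C. GC boxes were thus found in both raised genes and in 1 of the 5 lowered genes, a difference that was not tested. Pik3cd and Mtor, which were not called, also held GC boxes in windows not printed here. Genes with more than 1 annotated start had more bases searched. The first Pik3r1 window (43.7%) and that of Inpp5d (53.7%) held none of the motifs. The Rheb window was above the median G and C content of 52.7% over 32851 RefSeq windows of this length. The Tsc2 window held an ETS core on each strand, the nearer of them beginning 8 bases before the start, and was 65.0% G and C. The windows of Tsc1 (57.3%) and Rptor (41.7%) held none of the 6 motifs. Over all windows the E-box was found in 7.15%, the GC box in 35.7%, the ETS core in 8.86%, the FOXO site in 3.65%, the cyclic AMP element in 1.79% and the E2F site in 0.323%. A match shows only that these letters are present, and the counts do not say which start of Akt1 was used.

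Pik3cd encodes p110δ, the catalytic PI3K subunit found mainly in leukocytes (Entrez gene 18707, chromosome 4 from 149649168 to 149702566 of GRCm38). Its level was 1318, 1138 and 1283 CPM in vehicle replicates 1, 2 and 3 and 1066, 1197 and 1191 CPM in AOA replicates 1, 2 and 3. The groups overlapped, and only in mouse 2 was the AOA culture the higher one. The means were 1246 ± 95.3 CPM with vehicle and 1151 ± 74.1 CPM with AOA (SD, n = 3), a log2 fold change of -0.11 (95% interval -0.46 to 0.23, adjusted p = 0.561 by edgeR). Pik3r1 encodes p85α, the regulatory subunit that stabilises p110 proteins and brings them to phosphorylated receptors (Entrez gene 18708, chromosome 13 from 101680761 to 101768217). It stood at 219, 179 and 233 CPM in the vehicle libraries and at 105, 133 and 126 CPM in the AOA libraries. The groups did not overlap, and the lowest vehicle level and the highest AOA level both came from mouse 2. Its log2 fold change was -0.79 (SE 0.15; edgeR adjusted p = 0.00249), a level 1.73-fold lower with AOA.

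The ratio of these partners was compared inside each library, since such a ratio does not depend on the scaling between libraries. Per kilobase of gene length, Pik3cd exceeded Pik3r1 by 8.21, 8.67 and 7.50 times in the vehicle libraries and by 13.8, 12.3 and 12.8 times in the AOA libraries. The log2 ratio was higher with AOA by 0.67 (SE 0.08), in all 3 mice. An exact permutation test (two-sided) that exchanged libraries between the groups without regard to the mouse gave p = 0.1. This is the smallest p of that test with 3 against 3 libraries, and it was 0.133 after adjustment over the 8 ratios tested.

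Among all 9 genes of class I PI3K subunits, 3 were lower, 0 higher and 6 not called, with a median log2 fold change of -0.30 against -0.02 over all tested genes. Besides Pik3r1 the lower genes were Pik3r2, which encodes p85β (-1.22, adjusted p = 0.00154 by edgeR), and Pik3r6, a partner of p110γ, which was low, at 4.00 ± 2.54 CPM with vehicle and 0.397 ± 0.183 CPM with AOA (SD, n = 3; log2 fold change -3.32). The regulatory genes Pik3r3 and Pik3r5 were not called (adjusted p = 0.995 and 0.325 by edgeR), nor were the catalytic genes Pik3ca, Pik3cb and Pik3cg (-0.30, 0.49 and -0.34), of which Pik3cb was called without vehicle replicate 2 (0.73, adjusted p = 0.0302) and with the replicate block and length trends removed (0.58, adjusted p = 0.0259). Of the 10 listed genes that feed or restrain PI3K, 6 were lower and 0 higher, with a median of -1.36. The largest falls were those of Pik3ap1 (-3.15), an adaptor for p85 also known from B cells and myeloid cells, Pik3ip1 (-2.62), a transmembrane protein that restrains PI3K, and Cblb (-2.02), a ubiquitin ligase that dampens T cell activation. Pik3ap1 fell beside the myeloid marker sum given above, and the part of myeloid cells in its fall was not tested. The interleukin-2 receptor genes Il2ra, Il2rb and Il2rg were not called. Their log2 fold changes were 0.03, -0.32 and 0.15, that of Il2ra changed sign under some alternatives, and Il2rb was called with the replicate block and length trends removed (-0.37, adjusted p = 0.0457 by edgeR).

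Inpp5d encodes SHIP1, the phosphatase of blood cells that takes the 5-phosphate from PIP3 (Entrez gene 16331, chromosome 1 from 87620312 to 87720510). Its level was 277, 280 and 267 CPM in the vehicle libraries, which lay close together, and 119, 181 and 187 CPM in the AOA libraries, with AOA replicate 1 well below the others. The means were 275 ± 6.79 CPM and 162 ± 38.0 CPM (SD, n = 3), and the log2 fold change was -0.76 (SE 0.18; edgeR adjusted p = 0.00690). Without AOA replicate 1 it was -0.57. SHIP1 is also made by myeloid and B cells, whose marker sums were lower and higher, respectively, with AOA, and their part in this fall was not tested. The ratio of Pik3cd to Inpp5d per kilobase was 4.15 ± 0.382 with vehicle and 6.69 ± 1.33 with AOA (SD, n = 3), higher with AOA in all 3 mice with the smallest possible exact permutation p of 0.1.

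Of 12 phosphatase genes listed, 5 were lower, 2 higher and 5 not called, with a median log2 fold change of -0.17. Inppl1, which encodes SHIP2, and Inpp5a, which acts on soluble inositol phosphates rather than PIP3, fell most (-1.77 and -1.56), followed by Inpp5k (-0.91). Inpp4b, which removes the 4-phosphate from the product of SHIP1, rose from 373 ± 38.0 CPM to 627 ± 64.7 CPM (SD, n = 3), a log2 fold change of 0.75 (adjusted p = 0.00321 by edgeR). Inpp5e was called higher at the threshold (0.33, adjusted p = 0.0495 by edgeR). It lost this call in 8 of 15 alternatives, among them leaving out vehicle replicate 1 or 3 or AOA replicate 2 or 3, with adjusted p up to 0.165.

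Akt1 encodes the most widely expressed AKT kinase (Entrez gene 11651, chromosome 12 from 112653821 to 112674884). Its level was 186, 208 and 181 CPM in the vehicle libraries and 270, 320 and 303 CPM in the AOA libraries. All 3 AOA cultures lay above all vehicle cultures, and the rise within a mouse was 0.54, 0.62 and 0.74 log2 units in mice 1, 2 and 3. The log2 fold change was 0.63 (SE 0.14; edgeR adjusted p = 0.00398), or 1.55-fold. Akt2 stood at 109 ± 7.06 CPM with vehicle and 127 ± 7.73 CPM with AOA (SD, n = 3; log2 fold change 0.22, adjusted p = 0.155 by edgeR) and was called only in the fits with length trends removed (0.33, adjusted p = 0.0288). Per kilobase Akt1 exceeded Akt2 by 3.21 ± 0.346 times with vehicle and 4.26 ± 0.348 times with AOA (SD, n = 3; exact permutation p = 0.1).

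In the list of 11 AKT kinases and regulators, 2 were higher, 4 lower and 5 not called. Sgk3, a kinase related to AKT that sits on endosomes, had the largest rise of all the pathway lists, from 27.9 ± 4.93 CPM to 124 ± 22.1 CPM (SD, n = 3), a log2 fold change of 2.15 (adjusted p = 3.44e-05 by edgeR). Trib1, which encodes a pseudokinase, was lower (-2.04), as was Phlpp1, a phosphatase of AKT (-1.22), whose groups overlapped. The call of Phlpp1 was lost in 5 of 15 alternatives, including those without vehicle replicate 1 or 3 and without AOA replicate 1 or 3, with adjusted p up to 0.116.

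Tsc1 encodes hamartin, which stabilises the TSC complex (Entrez gene 64930, chromosome 2 from 28640993 to 28691172). It was at 43.7, 45.1 and 42.2 CPM in the vehicle libraries and 24.7, 31.4 and 31.6 CPM in the AOA libraries, with no overlap, and fell by 0.58 on the log2 scale (SE 0.14; edgeR adjusted p = 0.00829). Tsc2 encodes tuberin, the subunit that acts on RHEB and is phosphorylated by AKT (Entrez gene 22084, chromosome 17 from 24595816 to 24632676). Its levels were 82.9, 77.7 and 84.2 CPM with vehicle and 46.6, 64.5 and 66.5 CPM with AOA, so that AOA replicates 2 and 3 lay nearer to the vehicle libraries than AOA replicate 1 did. The log2 fold change was -0.46 (SE 0.16; edgeR adjusted p = 0.0323). This was the weakest call of the 7. It was lost without vehicle replicate 1 (-0.43, adjusted p = 0.103), without vehicle replicate 3 (-0.41, adjusted p = 0.113) and with length trends removed plus a replicate block for the mouse (-0.33, adjusted p = 0.0594), while without AOA replicate 1 the value was -0.31 (adjusted p = 0.0347). The Tsc2 exons overlap exons of Pkd1 on the opposite strand over 693 bases in the GENCODE annotation, and the strand setting of the counting is not known here. The ratio of Tsc1 to Tsc2 per kilobase was 0.447 ± 0.0337 with vehicle and 0.414 ± 0.0238 with AOA (SD, n = 3), a log2 difference of -0.11 (SE 0.08, exact permutation p = 0.3).

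Rheb, the GTPase that the TSC complex switches off (Entrez gene 19744, chromosome 5 from 24802823 to 24842361), had the largest log2 fold change of the 9 genes with all libraries included. It stood at 43.6, 43.4 and 45.3 CPM in the vehicle libraries and at 95.3, 71.1 and 71.8 CPM in the AOA libraries. The vehicle libraries were nearly equal and all AOA libraries were above them, AOA replicate 1 most. The log2 fold change was 0.85 (SE 0.15; edgeR adjusted p = 0.00138), and without AOA replicate 1 it was 0.70, as was that of Akt1. Per kilobase, Rheb exceeded Tsc2 by 2.22, 2.36 and 2.27 times in the vehicle libraries and by 8.64, 4.66 and 4.56 times in the AOA libraries. These ratios rest on the deposited lengths. With the exon lengths of GENCODE, tried after the data were seen, Rheb was at 0.655, 0.696 and 0.671 times the level of Tsc2 with vehicle. With AOA it was at 2.55, 1.37 and 1.34 times, so which gene was higher in vehicle depends on the length used. A fixed length per gene cancels from the difference between the groups, so a change of lengths cannot test that difference. The log2 ratio was higher by 1.31 (SE 0.30) with AOA, the largest shift of the 8 ratios, with an exact permutation p of 0.1, and Rheb is much shorter than Tsc2. All 5 genes of the TSC and RHEB list were called. Tbc1d7, the remaining subunit of the TSC complex, fell from 19.8 ± 5.10 CPM to 9.96 ± 0.545 CPM (SD, n = 3; -0.99), so that all 3 subunits were lower, and Rhebl1, a relative of Rheb, fell as well (-0.98).

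**Figure D3:**
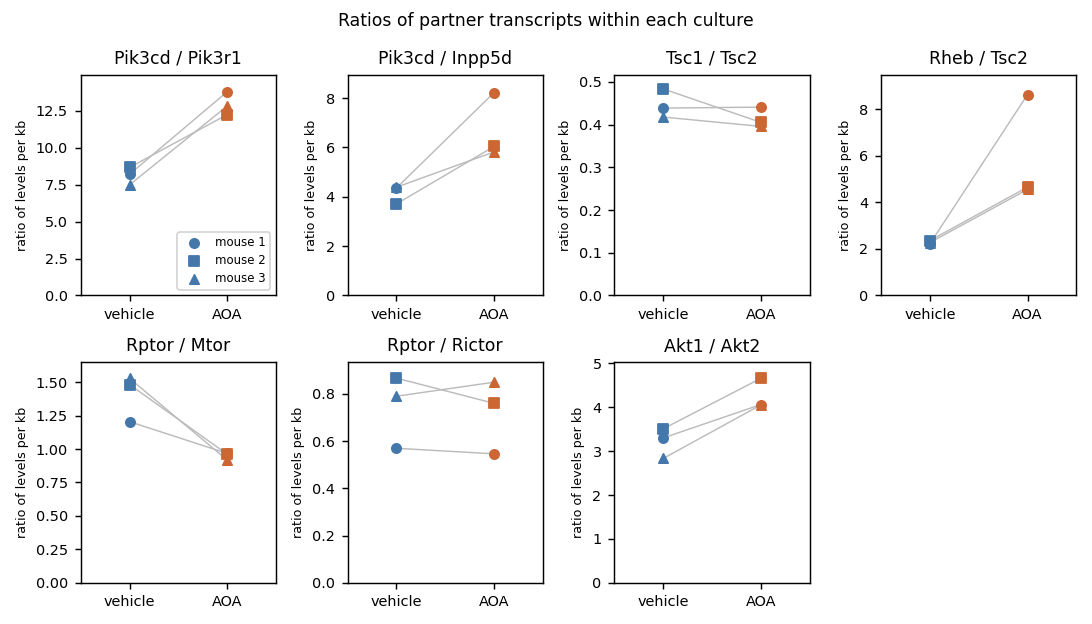
Ratio of the levels per kilobase of 7 pairs of partner genes within each library (vertical axes from 0), vehicle in blue and AOA in orange, joined by mouse. Rheb over Tsc2 and Pik3cd over Pik3r1 are higher in every AOA library, Rptor over Mtor is lower, and the groups overlap for Tsc1 over Tsc2 and Rptor over Rictor.

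Mtor encodes the kinase shared by both mTOR complexes (Entrez gene 56717, chromosome 4 from 148448582 to 148557685). Its level was 60.9, 56.2 and 56.3 CPM in the vehicle libraries and 40.1, 55.4 and 55.4 CPM in the AOA libraries. The groups did not overlap, but AOA replicates 2 and 3 lay just under the vehicle libraries and only AOA replicate 1 was clearly lower. The log2 fold change was -0.20 (95% interval -0.55 to 0.15, adjusted p = 0.302 by edgeR), and it was -0.06 without AOA replicate 1 and -0.01 with length trends removed. Rptor encodes raptor, the subunit that brings substrates to mTORC1 (Entrez gene 74370, chromosome 11 from 119602905 to 119899591). It was at 59.9, 68.0 and 70.3 CPM with vehicle and 31.7, 43.6 and 41.5 CPM with AOA, without overlap, a log2 fold change of -0.76 (SE 0.16; edgeR adjusted p = 0.00298). Relative to Mtor, Rptor was lower with AOA in each mouse, going from 1.20, 1.48 and 1.53 times the level of Mtor per kilobase to 0.967, 0.961 and 0.917 times, a log2 difference of -0.56 (SE 0.11) with an exact permutation p of 0.1. With GENCODE exon lengths Rptor was below Mtor in vehicle too, at 0.739, 0.909 and 0.937 times. With AOA it was at 0.593, 0.589 and 0.562 times, so which gene was higher in vehicle depends on the lengths. The difference between the groups cannot be tested this way, since fixed lengths cancel from it.

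Rictor, which encodes the corresponding subunit of mTORC2, was also lower, at 121 ± 17.8 CPM with vehicle and 72.6 ± 6.78 CPM with AOA (SD, n = 3; -0.73, adjusted p = 0.00302 by edgeR). The ratio of Rptor to Rictor was 0.742 ± 0.154 with vehicle and 0.718 ± 0.156 with AOA (SD, n = 3), with an exact permutation p of 0.7. Its log2 difference of -0.05 changed sign without vehicle replicate 2 (0.08), without vehicle replicate 3 (0.0086) and without AOA replicate 1 (0.14). Of the 12 genes of mTOR complexes and assembly factors, 5 were higher, 3 lower and 4 not called, with a median log2 fold change of 0.27. The genes that rose most were Prr5l (1.49) and Prr5 (0.86), which encode subunits of mTORC2, and Tti1 (0.73), a factor for the assembly of PI3K-related kinases. Deptor, an inhibitor of mTOR, was near the lower end of detection, at 3.19 ± 0.961 CPM and 1.38 ± 0.476 CPM (SD, n = 3; -1.21, adjusted p = 0.0246 by edgeR), and its call was lost without vehicle replicate 1 or 3 and without AOA replicate 1, with adjusted p up to 0.0895.

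Ordered by level per kilobase of gene length, the vehicle libraries had Pik3cd first at 231 ± 17.6 CPM per kb, then Akt1 at 67.2 ± 4.96, Inpp5d at 55.6 ± 1.37, Rheb at 29.0 ± 0.695 and Pik3r1 at 28.5 ± 3.82 CPM per kb (SD, n = 3). Tsc2, Rptor, Mtor and Tsc1 followed at 12.7 ± 0.531, 9.41 ± 0.777, 6.72 ± 0.312 and 5.66 ± 0.188 CPM per kb. Every neighbour in this order was separated in all 3 libraries except Rheb and Pik3r1, whose ranges overlapped. With AOA, Rheb was at 52.2 ± 9.06 and Inpp5d at 32.9 ± 7.70 CPM per kb, and Mtor and Rptor became neighbours with overlapping ranges, at 5.85 ± 1.03 and 5.54 ± 0.901 CPM per kb, although Mtor was the higher of them in each AOA library. Pik3cd stayed first at 213 ± 13.7 and Tsc1 last at 3.79 ± 0.511 CPM per kb. These levels rest on the length in the deposited table, which for Rheb was 1521 bases against 7721 bases for all its exons in GENCODE. With GENCODE lengths, tried after the data were seen, Rheb lay below Inpp5d in both groups, at 5.71 ± 0.137 against 36.1 ± 0.893 with vehicle (SD, n = 3), and at 12.3, 9.21 and 9.30 against 15.6, 23.8 and 24.6 CPM per kb in AOA replicates 1, 2 and 3, and Rptor lay below Mtor in both groups. Pik3cd, Akt1 and Inpp5d then led in both groups and Tsc1 was again last.

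**Figure D4:**
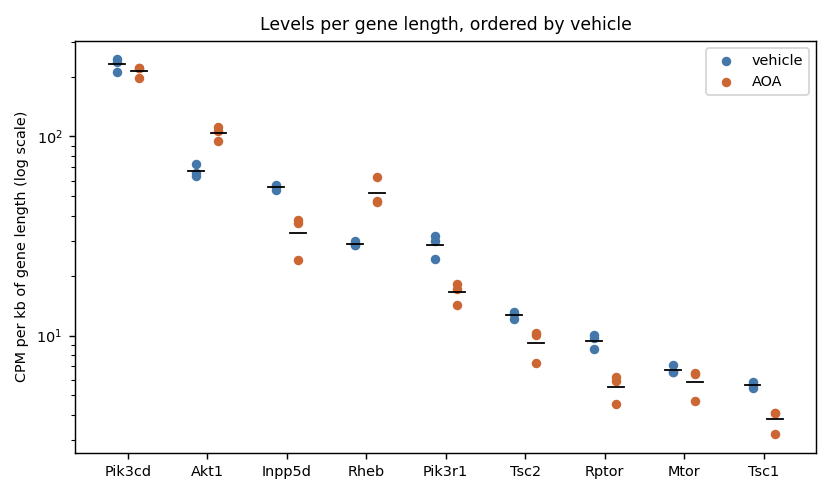
Level of each of the 9 genes as CPM per kilobase of gene length (log scale) in 3 vehicle (blue) and 3 AOA (orange) libraries, with the mean as a black line, ordered by the vehicle mean. Pik3cd is highest and Tsc1 lowest in both groups, and on these deposited lengths Rheb lies above Inpp5d only with AOA, whereas on GENCODE exon lengths it lies below Inpp5d in both groups (10.3 against 21.4 CPM per kb with AOA).

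Among the 13 genes that act in amino acid sensing at the lysosome, 3 were higher, 3 lower and 7 not called, with a median log2 fold change of 0.06. Slc38a9, the lysosomal arginine sensor, fell from 39.3 ± 4.44 CPM to 11.5 ± 1.94 CPM (SD, n = 3; -1.77, adjusted p = 7.44e-05 by edgeR), and Flcn, which acts on RagC and RagD, fell by 0.72 on the log2 scale. The Ragulator genes were divided. Lamtor3 and Lamtor1 rose (0.76 and 0.56), Lamtor4 fell (-0.55) and Lamtor5 was not called (0.50), except with DESeq2 (adjusted p = 0.0455) and without AOA replicate 2 (0.0351). The GTPase gene Rraga rose by 0.53. The calls of Lamtor1 and Lamtor4 were lost in 6 and 4 of 15 alternatives, for both without vehicle replicate 1 or 3, for Lamtor1 also without AOA replicate 1, with the 10 CPM minimum and with length trends removed (0.34, adjusted p = 0.0975), with adjusted p up to 0.122, and for Lamtor4 without AOA replicate 2 or 3 (up to 0.0782), and that of Rraga without vehicle replicate 3 (0.0600).

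Of 19 genes for the GATOR and KICSTOR complexes and their sensors, 3 were higher, 6 lower and 10 not called, with a median of -0.06. Sec13 and Seh1l, which are also parts of the nuclear pore, rose most (1.32 and 0.86), and Itfg2 rose by 0.62, a call that was lost without vehicle replicate 1 and without AOA replicate 1 or 3 (adjusted p up to 0.0923). The lower genes were led by Castor2 (-0.88) and Wdr59 (-0.63). Of 7 AMPK and stress genes with a row, among 10 listed, 2 were higher and 3 lower. Ddit4, which encodes the mTORC1 inhibitor REDD1, fell from 180 ± 4.84 CPM to 89.7 ± 4.95 CPM (SD, n = 3; adjusted p = 1.96e-04 by edgeR), and the AMPK subunit genes Prkab2 and Prkag2 went in opposite directions (-1.63 and 0.95). Stk11 (-0.42) and Prkag1 (0.42) lost their calls in 4 and 8 of 15 alternatives, both of them without vehicle replicate 1 or 3 and without AOA replicate 2, Stk11 also without AOA replicate 3 (adjusted p up to 0.125) and Prkag1 also without AOA replicate 1 and with the replicate block (up to 0.140).

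The 13 genes that encode substrates of mTORC1 and AKT had 2 lower, 0 higher and 11 not called, with a median of -0.17. With length trends removed there were 4 lower and 2 higher. Ulk1, the kinase that starts autophagy, was lower (-1.38, adjusted p = 7.32e-04 by edgeR), as was Rps6kb2 (-0.61), whose call was lost without vehicle replicate 1 and without AOA replicate 2 or 3 (adjusted p up to 0.0744). Eif4ebp1 and Rps6kb1 were not called (-0.23 and 0.21) but were called with length trends removed (-0.45, adjusted p = 0.0332, and 0.39, adjusted p = 0.0251 by edgeR). Without vehicle replicate 2, Rps6kb1 (0.36, adjusted p = 0.0412) and Foxo1 (-0.59, adjusted p = 0.0217 against 0.163 with all libraries) were called. Of 7 genes known as FOXO targets in T cells, 4 were lower and 3 not called. Cdkn1b, a cell cycle inhibitor, and S1pr1, a receptor for leaving lymphoid tissue, had log2 fold changes of -1.32 and -1.03 beside the larger fall of Il7r (-4.46), and the call of S1pr1 was lost without AOA replicate 1 (adjusted p = 0.0543).

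**Figure D5:**
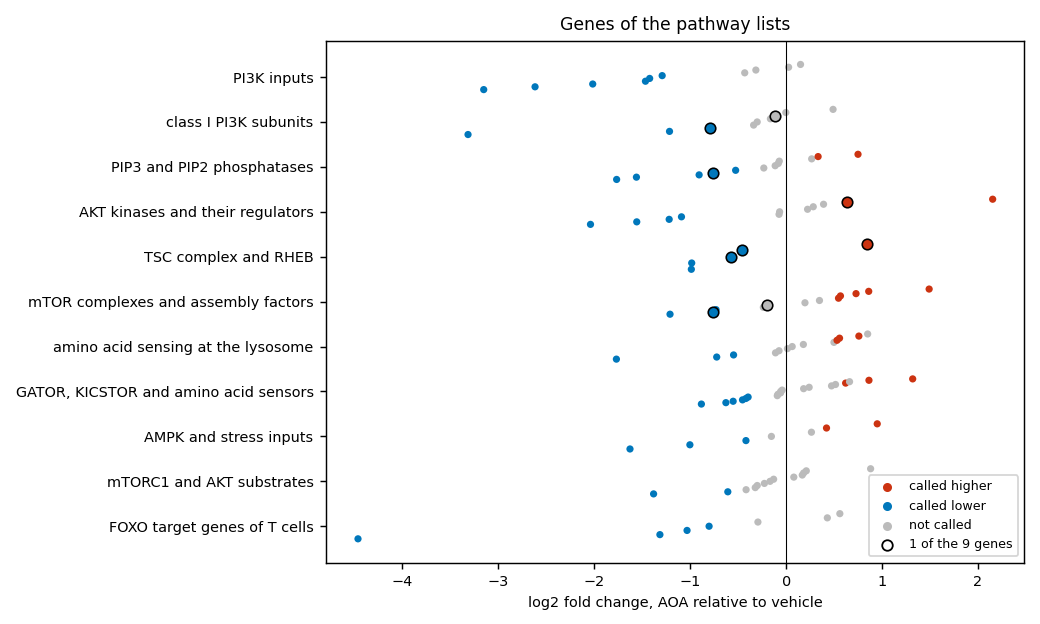
Log2 fold change of AOA relative to vehicle (horizontal axis) for 118 genes in 11 lists of the pathway (rows), red where called higher, blue where called lower, grey where not called, with the 9 genes ringed in black. All 5 TSC and RHEB genes are called and Rheb alone among them is higher, while 11 of 13 substrate genes are grey in this fit.

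Over the 109 genes of these lists other than the 9, 16 were higher and 38 lower, a share called of 49.5% with a median log2 fold change of -0.11, against 53.0% and -0.02 for all genes tested. With the 9 genes included the split was 18 higher to 43 lower, while it was 25 to 43 with length trends removed and 27 to 40 with the mouse as a block as well. Of the 54 called genes outside the 9, 18 lost the call in at least 1 of 15 alternatives.

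The genes whose log2 CPM followed that of Rheb most closely over the 6 libraries were Cops5, Txnl1 and Cenpq, each with a Pearson r that rounds to 1.00, and 945 genes had an r above 0.95 with Rheb. For Pik3r1, the lowered gene with the smallest p, they were Samhd1, Prune1 and Pik3c3 (each with an r that rounds to 1.00), and 818 genes were above 0.95. The 6 libraries form 2 groups, so a high r is reached by many genes that differ between them.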

How the data were processed

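The 9 genes and all gene lists were chosen with earlier results of these data known. Per the labels, bcl2fastq, STAR, featureCounts and DESeq2 were used by the authors with the build mm10. Their methods give a stranded messenger RNA kit, paired-end reads, default STAR settings and uniquely mapped reads. The versions, the annotation, the strand setting and any gene filter were not stated in the sources used here. The authors deposited raw counts per gene for 6 libraries, with a gene length in bases, which was used as given.

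The test was that of edgeR 4.0.16 under R 4.3.3 (filterByExpr with a minimum count of 10, TMM, robust quasi-likelihood test of treatment, Benjamini-Hochberg over all tested genes). The authors' tool, DESeq2 1.42.0, was an alternative, as were limma 3.58.1 (voom), median-of-ratios factors, total counts, no filter, a minimum of 10 CPM in 3 libraries, a replicate block for the mouse, removal of each library's smooth trend with gene length (lowess span 0.3), and each library left out. Log2 CPM values used a prior count of 2. The count fits, other than those with a library left out, were tested on simulated counts with known changes. These counts held no trend with gene length and no difference between mice. The length removal and the block were thus not tested for what they correct. The ratios, level order, correlations and sequence steps were not simulated. With 19 symbols blank or read as dates, names were completed by Entrez number. Coordinates are those of RefSeq on GRCm38, the build that mm10 denotes. The same mice gave both groups, per the labels, and deviations from the group means correlated within mice 1, 2 and 3 with r of 0.09, 0.19 and 0.19 across genes, which are not independent replicates. The genes named are the 9, their partners in the ratios, and up to 3 called genes per direction and list with at least 1 CPM in the higher group. Genes singled out beyond this rule (the interleukin-2 receptor, catalytic PI3K, Ragulator and substrate genes that were not called, and Pik3r3 and Pik3r5) were chosen after their values were seen. Some results on the pathway lists and 1 of the 8 ratios are not reported here.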

Additional observations from a re-analysis of the deposited data

How the results depend on the processing

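Of the 9 genes, 7 were called under each alternative except 3, in which Tsc2 was lost and 6 remained. With the mouse as a replicate block 7 were called, and the block changed no call of the 9. Its log2 fold changes were 0.83 for Rheb, 0.63 for Akt1, -0.79 for Pik3r1, -0.77 for Rptor, -0.79 for Inpp5d, -0.59 for Tsc1 and -0.48 for Tsc2. Pik3cd, which was not called in any fit, changed sign once length trends were removed, to 0.0036 without the block and 0.0059 with it. When single libraries were left out, between 46 and 72 pathway genes were called in place of 61, and between 4952 and 6796 of all genes in place of 6233. In the same fits the log2 ratio of Rptor to Rictor lay between -0.23 and 0.14, and the other 7 ratios kept their direction. In the pathway lists the block removed the calls of Inpp5e (adjusted p = 0.0780) and Prkag1 (0.0555) and added those of Fnip2, BC048403, Sesn2 and Lars. The cause of these changes was not tested. The lowest count of the 9 genes in any library was 537, and each group had 3 cultures. The part of depth in the precision was not tested.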
